A study of Mus musculus with 18 samples.

Results

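The genes described here are 32 genes of dermal adipocytes, the fat cells of the skin, out of 55357 genes in the deposited table. Members were taken as the rows whose gene symbol is one of 32 names, and each of the 32 had 1 row. Each of 18 FVB mice, all 6 months of age, gave 1 library of back skin RNA. WT mice (n = 6, mice 1 to 6) carried no transgene. N-IKKa mice (n = 6, mice 7 to 12) carried an exogenous IKKalpha placed in the nucleus of keratinocytes, and C-IKKa mice (n = 6, mice 13 to 18) carried one placed in the cytoplasm of keratinocytes. IKKalpha, a kinase known from NF-kB signalling, is also needed for the epidermis to differentiate. The sources used here give neither the promoter that drove the transgenes nor the number of founder lines nor the sex of the mice. The labels put the transgenes in keratinocytes, so the adipocytes were neighbours of the cells that were altered.

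Dermal adipocytes lie as a layer beneath the dermis and around the lower hair follicles. They store triglyceride in a single large droplet, which they fill by taking up fatty acids and by making them from glucose, and empty by lipolysis. They also secrete hormones. In mouse skin this layer is known to thicken and thin with the hair cycle.

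The libraries held 11.1 to 15.7 M reads counted on genes. Hair gene levels fell into 2 ranges. The mean of 16 hair shaft and root sheath genes, as log2(normalized count + 1), was 10.6 to 12.8 in 6 libraries and at most 5.87 in the other 12. These 6 samples (WT 1 and 4, N-IKKa 8, 9 and 11, C-IKKa 14) are called high hair libraries below, and the 12 others low hair libraries. The 52 keratin-associated protein genes gave the same split. All 6 high hair libraries read as female from the Y-linked gene Ddx3y, as did 4 low hair libraries (WT 2 and 5, N-IKKa 10, C-IKKa 18), and the 8 male libraries were all low in hair genes. The hair states were defined from the data, so they are described and not tested.

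Of the 32 members, 28 entered the tests, having reached 10 normalized counts in 6 libraries or more. The levels spanned a wide range. Per kilobase of annotated exon, Car3, a carbonic anhydrase that is among the most abundant proteins of fat and muscle, had a mean level over the 18 libraries of 13356 normalized counts. Next came Elovl6, the elongase that turns palmitate into stearate (2533), Cfd, which encodes the protease adipsin (1952), and the hormone gene Adipoq (1583), on the same per kilobase scale. Leptin (Lep) lay lower at 231, the adipocyte master regulator Pparg at 214, and the imprinted gene Mest, a marker of growing fat, at 32.4 normalized counts per kilobase. The defining adipocyte genes Adipoq, Plin1 and Cidec were therefore present in each of the 18 libraries.

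The 4 members that did not enter the tests were Cav1, Agpat2, Lipe and Ucp1. Cav1 (caveolin-1 of the plasma membrane), Agpat2 (an acyltransferase of triglyceride synthesis) and Lipe (hormone-sensitive lipase) were listed at 0 in all 18 libraries. All of them are known as well-expressed genes of white fat, and nothing is read here from the listed 0. In an annotation of the earlier mouse build, 15.6% of Lipe exon sequence and 3.0% of Agpat2 exon sequence lay opposite exons of another gene, and 0% of that of Cav1. Ucp1, the uncoupling protein of brown fat, was listed at 0 in 11 libraries and reached at most 3.13 normalized counts, which is near the 2.45 to 3.61 normalized counts that 3 reads were worth in a library. Exact two-sided permutation tests over 6 against 6 libraries gave p = 0.197 for Ucp1 in C-IKKa against WT, 0.727 for N-IKKa against WT and, between both transgenic groups, 0.47.

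The start-site regions of 4 members are shown because these genes stand for the hormone, droplet and lipid synthesis roles on which the results turn. The windows of Cfd, with no match to the motifs searched, and of Thrsp, which held CCAAT, are not shown. Each run is the RefSeq promoter window of GRCm38.p6, from 250 bases before to 50 bases after the annotated start, 5′ to 3′ on the gene's own strand. In Lep and Plin1 the capitals mark the C/EBP-type motif TTGCNNAA, and in Adipoq and Fasn they mark CCAAT on either strand.
Lep, chr6:29059971-29060270, plus strand: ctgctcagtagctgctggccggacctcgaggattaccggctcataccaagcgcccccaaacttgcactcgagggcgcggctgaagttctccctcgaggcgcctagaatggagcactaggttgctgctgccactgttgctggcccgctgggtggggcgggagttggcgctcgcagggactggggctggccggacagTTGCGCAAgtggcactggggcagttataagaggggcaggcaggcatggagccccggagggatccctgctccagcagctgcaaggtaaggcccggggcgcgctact
Plin1, chr7:79732727-79733026, minus strand: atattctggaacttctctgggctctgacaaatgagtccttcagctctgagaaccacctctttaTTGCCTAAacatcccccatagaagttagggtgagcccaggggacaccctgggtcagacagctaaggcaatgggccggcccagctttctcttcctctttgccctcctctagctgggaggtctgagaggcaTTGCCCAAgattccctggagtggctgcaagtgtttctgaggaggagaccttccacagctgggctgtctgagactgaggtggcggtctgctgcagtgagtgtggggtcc
Adipoq, chr16:23146286-23146585, plus strand: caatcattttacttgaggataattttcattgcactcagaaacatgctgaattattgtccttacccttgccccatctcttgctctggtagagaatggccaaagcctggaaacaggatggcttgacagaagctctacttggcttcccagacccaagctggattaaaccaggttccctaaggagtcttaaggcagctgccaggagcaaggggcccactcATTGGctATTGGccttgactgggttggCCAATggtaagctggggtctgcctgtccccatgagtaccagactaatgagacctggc
Fasn, chr11:120824498-120824797, minus strand: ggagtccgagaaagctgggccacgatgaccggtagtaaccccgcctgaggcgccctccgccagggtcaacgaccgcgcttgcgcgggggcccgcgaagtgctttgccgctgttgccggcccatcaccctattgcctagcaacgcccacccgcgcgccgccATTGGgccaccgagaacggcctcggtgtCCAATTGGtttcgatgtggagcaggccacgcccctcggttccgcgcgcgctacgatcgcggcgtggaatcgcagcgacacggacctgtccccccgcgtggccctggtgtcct
The match in Lep began at position -55 relative to the start and reads the same on both strands, and those in Plin1 began at -187 and -58. Adipoq held 3 CCAAT matches, beginning at -34, -27 and -7. Fasn held 3, beginning at -90, -62 and -59, of which the last 2 overlap on opposite strands.

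A promoter entry was found for 24 of the 32 members, with 33 windows in all. TTGCNNAA stood in 5 of these 33 windows (Cidec, Lep, Mest, Plin1 and Pparg) and in 10.8% of all 32851 windows of this length. CCAAT stood in 10 of the 33 windows, of 9 genes, and in 37.4% of all windows. The PPAR half-site AGGTCA stood in 8 of the 33 windows, of 6 genes (Acly, Aqp7, Cd36, Elovl6, Pparg and Ucp1) and in 16.3% of all windows. CACGTG stood in 1 window (Lipe; 7.15% of all windows) and TATAAA in 2 windows (Cav1 and Pparg; 13.6%). The DR1 motif, AGGTCA repeated with 1 base between, was in no member window and in 0.0396% of all windows. Both strands were searched for each motif. The longer repeat contains the AGGTCA letters, and a match is a description of these letters in the window and not a binding site.

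Most members had lower levels in the high hair libraries. The median over the 6 high hair libraries was below that over the 12 low hair libraries for 26 of 28 members, with a median difference of -0.83 on the log2 scale. Over all 17667 genes tested the median difference was -0.01, with 8977 genes lower. The hormones and the droplet genes showed the largest median differences (both -1.06), and lipid synthesis genes the smallest (-0.47). In bulk skin, fewer adipocytes and less RNA per adipocyte cannot be told apart. The listed hair shaft, root sheath and keratin-associated protein genes took 0.682 to 2.89% of reads in the high hair libraries. In the low ones they took at most 0.0449%. Other genes that were higher in the high hair libraries are not in this share. The part of either in the member levels was not tested.

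Among the hormones, Adipoq (adiponectin) ran from 795 to 3555 normalized counts in the high hair libraries (median 984) and from 1442 to 4787 in the low hair libraries (median 2492). Lep ran from 210 to 685 (median 442) against 452 to 1764 (median 865). Both ranges overlapped. Cfd, whose product adipsin acts in the alternative complement pathway, ran from 658 to 3478 (median 961) against 1308 to 3183 (median 1863). Retn (resistin) ran from 54.4 to 299 (median 72.2) against 82.0 to 508 (median 163). For Adipoq and Cfd the overlap came from 1 library, C-IKKa 14, without which the high hair libraries reached 1160 and 1018 normalized counts. Retn reached 92.7 without it, still above the lowest low hair library (82.0).

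The droplet genes followed the same order. Plin1, the perilipin that coats the droplet and gates lipolysis, ran from 799 to 3051 normalized counts in the high hair libraries (median 1153) and from 1289 to 4460 in the low ones (median 2528). Cidec, which fuses small droplets into large ones, ran from 447 to 1898 (median 616) against 1086 to 1929 (median 1201). Plin4, another droplet coat protein, ran from 1513 to 4308 (median 2459) against 3550 to 8410 (median 5078). Without C-IKKa 14 the high hair libraries lay below every low hair library in these 3 genes.

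Of the regulators and markers, Pparg, the nuclear receptor that drives adipocyte differentiation, ran from 272 to 845 normalized counts (median 372) in the high hair libraries and from 531 to 1169 (median 709) in the low ones. Car3 ran from 12287 to 45208 (median 18553) against 26275 to 76633 (median 42965). Fabp4, the fatty acid carrier often used to mark fat cells, departed from the others. It ran from 1158 to 2646 (median 1827) against 1102 to 2770 (median 1661), a difference of medians of 0.14 on the log2 scale. Endothelial cells and macrophages also express Fabp4, and the part of these cells in its levels was not tested. Mest was close in both states, with medians of 109 and 126 normalized counts. In the annotation 23.1% of Mest exon sequence lies opposite exons of Copg2, so without a stated strand setting its reads are uncertain.

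The 5 uptake genes were all lower by their medians in the high hair libraries. Slc2a4, the insulin-responsive glucose transporter of fat and muscle, had medians of 559 and 1045 normalized counts. Aqp7, the glycerol channel, had medians of 90.2 and 158, and Acsl1, which activates fatty acids to acyl-CoA, of 2366 and 4173. In the annotation 9.91% of Acsl1 exon sequence lies opposite a gene listed at 0 throughout. The differences were smaller for Cd36, a fatty acid transporter (1415 and 2330), and for Lpl, which frees fatty acids from lipoproteins at the vessel wall (8605 and 11524). Lpl ranges overlapped with or without C-IKKa 14.

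Lipid synthesis genes split. Dgat2, which makes the last step to triglyceride, had medians of 1567 and 3026 normalized counts in high and low hair libraries. Pck1 (glycerol 3-phosphate supply in fat) had 351 and 646, and Gpd1, which makes glycerol 3-phosphate from glucose, had 221 and 379. Acly, which makes cytosolic acetyl-CoA, had nearly equal medians of 2728 and 2738. Elovl6 had 15994 and 17509, and Dgat1, the other enzyme of the last step, had 561 and 744. Acaca, the acetyl-CoA carboxylase that commits carbon to fatty acids, was the second member with a higher median in the high hair libraries (1012 against 694). In 13.0% of its exon sequence Gpd1 lies opposite an antisense gene.

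Of the lipolysis genes, Pnpla2, the lipase that starts triglyceride breakdown, had medians of 649 and 1161 normalized counts in high and low hair libraries. Pnpla3, a related lipid droplet enzyme raised by feeding, had 456 and 617. Adrb3, the adrenergic receptor through which nerves switch on lipolysis, had 210 and 333. Pnpla3 shares 6.78% of its annotated exons with a same-strand gene that held 983 to 4899 normalized counts. In Adrb3, 24.9% of exon sequence lies opposite an antisense gene listed at 0 throughout. Both values are uncertain, by an amount that was not measured.

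**Figure D1:**
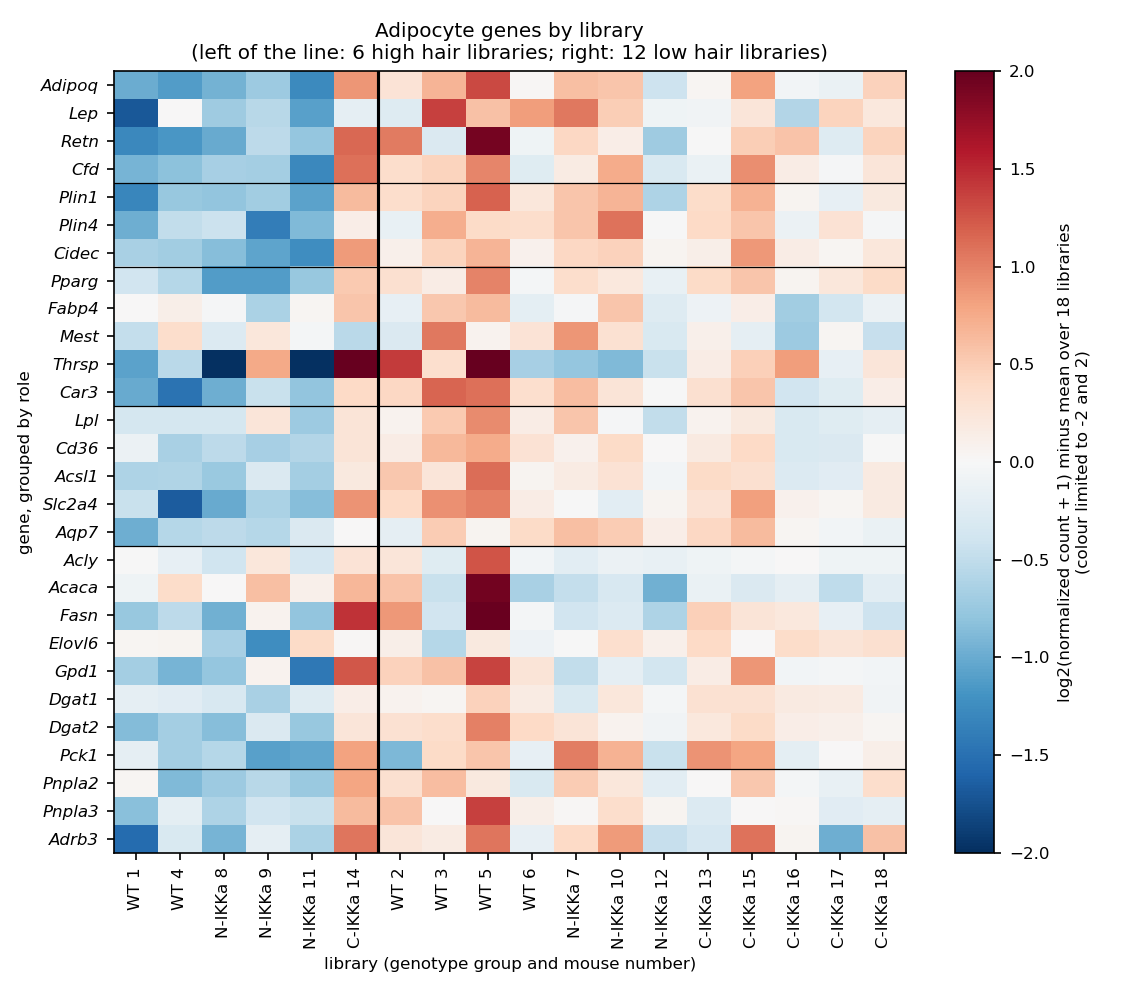
The 28 members that entered the tests (rows, grouped by role) in 18 libraries (columns), coloured by log2(normalized count + 1) minus the gene's mean over the libraries. The 5 high hair libraries of WT and N-IKKa are mostly blue, and C-IKKa 14, also a high hair library, is mostly red with WT 5.

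With all 18 libraries, 0 of 28 members had every high hair library below every low hair library (5.25% of all genes tested did), and 0 had every one above (8.45%). C-IKKa 14 decided that count. Among the high hair libraries it had the lowest mean of the hair genes (10.6 on the log2 scale, next N-IKKa 9 with 10.8). C-IKKa 14 also had the smallest share of reads on hair genes (0.682%, next N-IKKa 9 with 1.14%). The part of this lower hair level in its member values was not tested. Without C-IKKa 14, 11 of 28 members did not overlap, all with the high hair libraries below (9.16% of all genes): Acsl1, Adipoq, Aqp7, Car3, Cfd, Cidec, Dgat2, Plin1, Plin4, Pparg and Slc2a4. Among the 10 female libraries alone, C-IKKa 14 included, the count was 0 of 28 (9.65%).

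Within the WT libraries, both high hair libraries lay below the 4 low ones in 19 of 28 members, beside 21.5% of all genes. Within N-IKKa, the 3 high hair libraries lay below the 3 low ones in 16 members, beside 26.9% of all genes, and above them in 1, Acaca, beside 26.9% of all genes in that direction. C-IKKa held a single high hair library. It lay below its 5 group mates in 0 members, beside 25.8% of all genes, and above all 5 in 13, beside 25.7% of all genes. These 13 were Acaca, Acly, Adipoq, Cfd, Fabp4, Fasn, Gpd1, Lpl, Pnpla2, Pnpla3, Retn, Slc2a4 and Thrsp. In Adipoq, WT 1 and 4 held 890 to 969 normalized counts against 1962 to 4787 in the other WT libraries, N-IKKa 8, 9 and 11 held 795 to 1160 against 1442 to 2925, and C-IKKa 14 held 3555 against 1762 to 3366.

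Averaged over the 28 members, each set to its own mean, the level in a library was -0.75 to -0.43 (log2) in the 5 high hair libraries of WT and N-IKKa, and 0.59 in C-IKKa 14. In the 12 low hair libraries it was -0.24 (N-IKKa 12) to 1.01 (WT 5). WT 5 held the highest value of the 18 libraries in 17 of 28 members, beside 9.97% of all genes tested, and lay above the mean in 28 of 28. Counts of lowest values follow, each with the share of all genes tested that were lowest in that library. WT 1 held the lowest value in 7 members (6.75%), N-IKKa 9 in 6 (9.89%) and N-IKKa 11 in 6 (6.41%). WT 4 held it in 3 (12.2%), N-IKKa 8 in 3 (7.42%), C-IKKa 16 in 2 (2.51%) and N-IKKa 12 in 1 (3.38%).

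**Figure D2:**
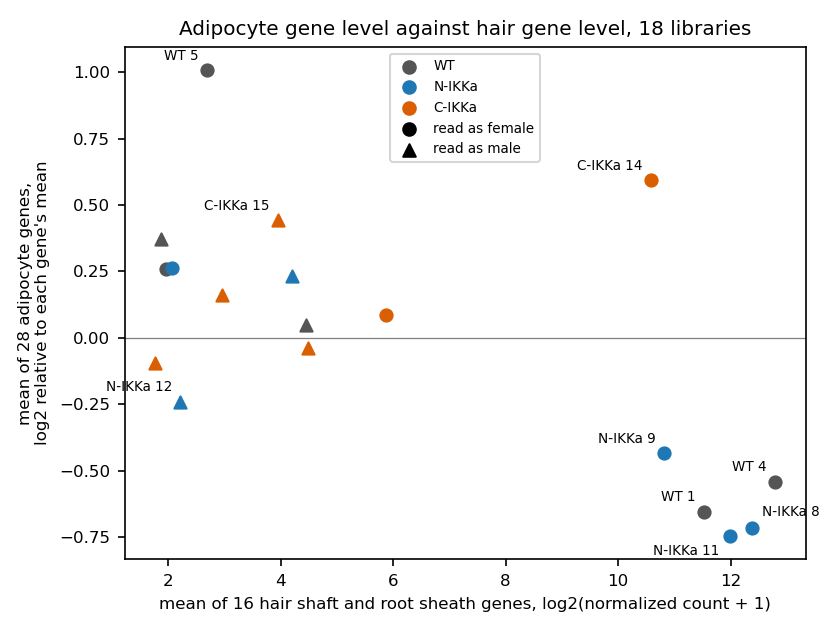
Mean level of the 28 members (vertical axis, log2 relative to each gene's mean) against the mean of 16 hair genes (horizontal axis, log2(normalized count + 1)), 1 point per library, coloured by genotype group with circles for libraries read as female and triangles for male. The 5 WT and N-IKKa libraries above 10 on the horizontal axis lie between -0.75 and -0.43, and C-IKKa 14 lies at 0.59.

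Genes of other skin cells also differed between the hair states. The summed level of 15 skeletal muscle genes, from the thin muscle sheet under the skin, was 17937 to 184995 normalized counts in the high hair libraries (median 55913) and 69293 to 212298 in the low ones (median 111201), with none of the 15 at 0. C-IKKa 14 (184995) and WT 5 (212298) were at the upper ends of these ranges. The summed level of 10 endothelial genes was 2315 to 4995 (median 3201) against 4146 to 6613 (median 4846). The 11 fibroblast genes summed to 25474 to 59558 (median 36653) against 43477 to 265820 (median 187886). This sum also differed by sex. Low hair libraries read as female held 43477 (WT 5) to 65565 (N-IKKa 10), which overlaps the high hair range. Those read as male held 128883 (C-IKKa 13) to 265820 (N-IKKa 7). The 9 sebaceous gland genes, from a gland that makes lipid of its own, summed to 6204 to 18853 (median 15736) against 13625 to 23111 (median 18644). Of 6 mammary genes, the milk protein genes Csn2 and Wap were listed at 0 throughout, and Krt18, the 1 that entered the tests, was higher in the high hair libraries (median 35.7 against 2.13 normalized counts). Muscle also expresses Car3, Slc2a4, Lpl and Cd36, and the sebaceous gland expresses Fasn, Elovl6 and Acly; the part of these cells in the member differences was not tested.

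Other genes of the adipocyte programme had the same sign. Medians were lower in the high hair libraries for 10 of 11 adipogenic transcription factors (median difference -0.38, log2), 13 of 15 other adipocyte markers (-0.82), 9 of 11 other lipid synthesis genes (-0.52), 8 of 10 other lipolysis and oxidation genes (-0.34) and 9 of 11 brown or beige adipocyte genes (-0.75). The comparison lists for other cells were lower too: skeletal muscle (-1.05, 15 of 15 genes), fibroblast (-1.37, 9 of 10), macrophage (-0.72, 10 of 11) and endothelial genes (-0.47, 10 of 10). Sebaceous gland genes were mixed (-0.80, 6 lower and 3 higher), as were epidermal keratinocyte genes (-0.66, 4 lower and 2 higher). The adipocyte members were therefore not alone in being lower, though the fibroblast sum also differed by sex among the low hair libraries.

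Over the 18 libraries the ratio of the highest to the lowest value was 55.9 in Thrsp, 9.34 in Retn, 8.41 in Lep, 7.65 in Fasn and 7.44 in Acaca, and from 2.16 (Dgat1) to 6.88 (Gpd1) in the other 23 members. Thrsp, which encodes a nuclear protein that accompanies lipogenesis, ran from 99.1 normalized counts in N-IKKa 11 to 5543 in WT 5. Fasn, the fatty acid synthase, ran from 2527 in N-IKKa 8 to 19336 in WT 5. Acaca ran from 441 in N-IKKa 12 to 3283 in WT 5, and Acly from 2203 in N-IKKa 8 to 6958 in WT 5. WT 5 was followed in Fasn by C-IKKa 14 with 13462 and WT 2 with 9002 normalized counts, while the other 15 held at most 6826. The same 3 libraries were highest in Thrsp, with 2906 in C-IKKa 14 and 1655 in WT 2. All 3 read as female, and they included both hair states. Over the 12 low hair libraries the ratio of highest to lowest was 16.4 in Thrsp, 7.44 in Acaca, 6.20 in Retn and 6.04 in Fasn. It was 1.69 in Dgat1, 1.75 in Aqp7 and 1.78 in Cidec.

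Between the genotype groups no member passed the test. In C-IKKa against WT, limma on log2(normalized count + 1) with Benjamini-Hochberg adjustment over 17667 genes called 0 of 28 members at an adjusted p below 0.05, beside 0.345% of all genes. At an unadjusted p below 0.05 the count was 0, beside 5.73% of all genes. On recovered reads, edgeR and DESeq2 also called 0 members. Of the 17667 genes, edgeR called 55 higher and 0 lower in C-IKKa, and DESeq2 136 higher and 15 lower. Both gave 0 members at an unadjusted p below 0.05, beside 6.1% (edgeR) and 7.18% (DESeq2) of all genes. The fold change was positive for 19 members and negative for 9, with a median of 0.18 (log2) beside 0.00 over all genes. In edgeR and in DESeq2 it was positive for 14 and negative for 14, with medians of 0.030 and 0.026. The smallest adjusted p among members was 0.954 (limma). That median was 0.32 without WT 5, 0.11 without C-IKKa 14, 0.00 without WT 1 and -0.01 without WT 4, so single libraries set its size and sign.

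The mean Adipoq level in normalized counts (± SD, n = 6 each) was 2339 ± 1461 for WT mice, 1691 ± 942 for N-IKKa mice and 2528 ± 789 for C-IKKa mice. In the order lowest, median and highest, WT libraries held 890, 2148 and 4787, N-IKKa libraries 795, 1301 and 2925, and C-IKKa libraries 1762, 2319 and 3555. The groups overlapped. For C-IKKa against WT the log2 fold change of Adipoq was 0.30 with 95% limits of -0.54 to 1.15, which leaves room for a difference in either direction. In the same order of groups, Lep had 913 ± 547, 703 ± 414 and 704 ± 169, and Pparg 663 ± 278, 475 ± 209 and 758 ± 94.6. The SD in C-IKKa was the smallest of the 3 groups for Adipoq, Lep and Pparg, but this order did not hold in every member. For Fabp4 the SD in C-IKKa (533) was the largest, and for Thrsp and Fasn that in N-IKKa (349 and 961) was the smallest. WT and N-IKKa held 5 of the 6 high hair libraries, and the part of hair state in the spread was not tested.

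**Figure D3:**
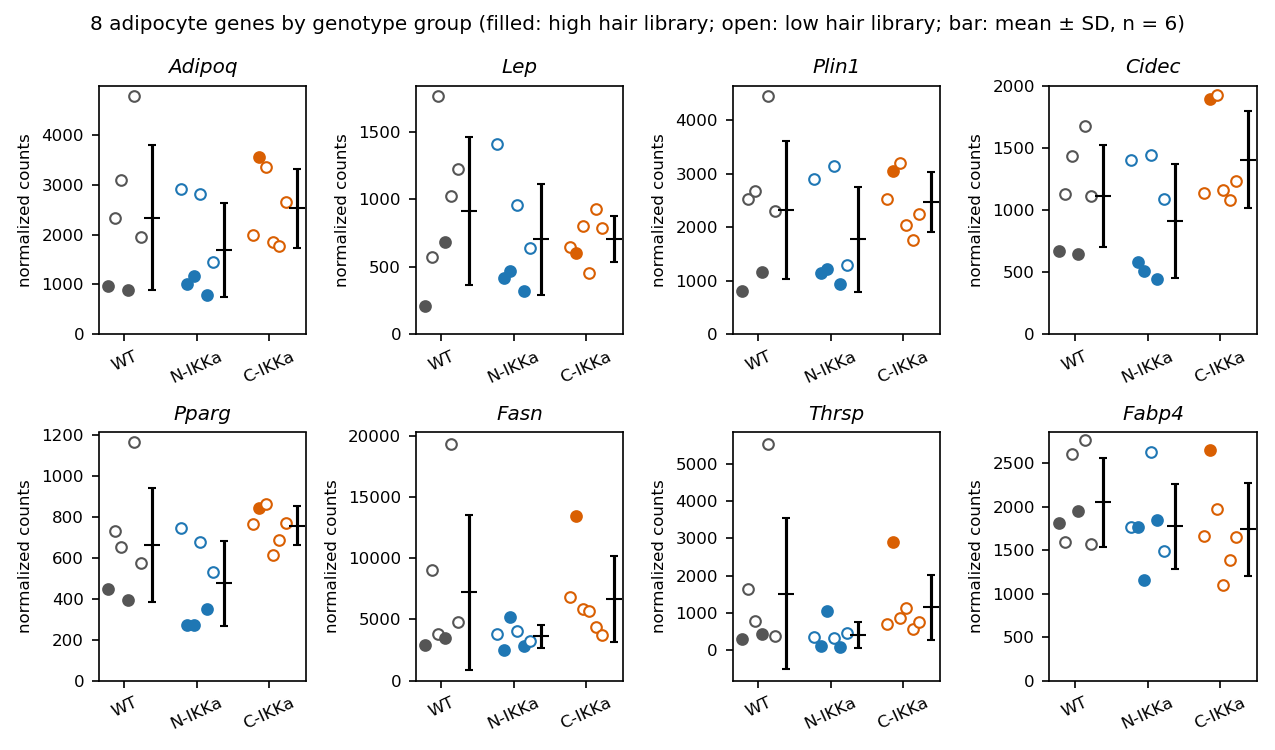
Normalized counts of 8 members in each library, by genotype group (filled points are high hair libraries, open points low hair libraries, the bar is the mean ± SD over 6 libraries). In Adipoq the filled WT and N-IKKa points lie at 795 to 1160 and the filled C-IKKa point at 3555, and the 3 groups overlap in each of the 8 genes.

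In N-IKKa against WT, 0 of 28 members were called by limma (0.00566% of all genes were), and 0 by edgeR or DESeq2. Of the 17667 genes, edgeR called 1 higher and 0 lower in N-IKKa, and DESeq2 1 higher and 1 lower. At an unadjusted p below 0.05, limma gave 1 member, edgeR 3 and DESeq2 4, beside 4.14%, 5.09% and 6.06% of all genes. The fold change was negative for 27 of 28 members (Aqp7 was the exception), with a median of -0.34 beside 0.01 over all genes. The median was -0.14 without WT 5 and -0.49 without WT 1. Thrsp had the smallest p, with a log2 fold change of -1.49 (SE 0.67, limma adjusted p = 0.88). Its libraries held 299, 613 and 5543 normalized counts in WT (lowest, median, highest) and 99.1, 353 and 1059 in N-IKKa, and they overlapped. Gpd1 gave -0.70 and Fasn -0.68 on the log2 scale, both at a limma adjusted p of 0.88.

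In N-IKKa against C-IKKa, 0 of 28 members were called by limma (0.43% of all genes were), and 0 by edgeR or DESeq2. Of the 17667 genes, edgeR called 1 higher and 59 lower in N-IKKa, and DESeq2 17 higher and 171 lower. At an unadjusted p below 0.05 the counts were 6 for limma, 4 for edgeR and 7 for DESeq2, beside 11.7%, 12.6% and 15.1% of all genes. The fold change was negative for 26 members, with a median of -0.41 beside 0.01 over all genes. The 6 were Thrsp (-1.69), Gpd1 (-0.88), Slc2a4 (-0.83), Pparg (-0.78), Cidec (-0.74) and Dgat1 (-0.39), at limma adjusted p values from 0.332 (Dgat1) to 0.416 (Slc2a4). N-IKKa held 3 high hair libraries and C-IKKa 1. These 3 contrasts share their libraries, so their values are not independent of each other.

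The genotype contrasts were repeated in the 12 low hair libraries, of which WT kept 4, N-IKKa 3 and C-IKKa 5. Again 0 of 28 members were called by limma in each contrast, beside 0.923% of all genes for C-IKKa against WT, 0.0113% for N-IKKa against WT and 0.289% for N-IKKa against C-IKKa. At an unadjusted p below 0.05 the counts were 7, 5 and 0, beside 12.6%, 6.97% and 6.91% of all genes; edgeR and DESeq2 were not run on these 12 libraries. The median in C-IKKa against WT turned from 0.18 to -0.36, with 26 of 28 members negative. Elovl6 (0.36) and Pck1 (0.36) were the exceptions. In N-IKKa against WT the median was -0.31, and in N-IKKa against C-IKKa it was 0.02. WT 5, the library with the highest member levels, is 1 of the 4 WT libraries in this fit. The skeletal muscle list moved the same way there, negative in 15 of 15 genes against WT in both contrasts (medians -0.56 in C-IKKa and -0.80 in N-IKKa), and its part in the member values was not tested. Sex was uneven as well, with 2 of 4 female libraries in WT, 1 of 3 in N-IKKa and 1 of 5 in C-IKKa.

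In the 12 low hair libraries the smallest adjusted p values against WT were as follows. Pnpla3 gave -0.64 in C-IKKa against WT (limma adjusted p = 0.221), Cd36 -0.46 (adjusted p = 0.238) and Car3 -0.68 (adjusted p = 0.24). In N-IKKa against WT, Gpd1 gave -1.01 (limma adjusted p = 0.514), Slc2a4 -0.67 (adjusted p = 0.515), Thrsp -1.75 and Dgat2 -0.43 (both adjusted p = 0.556). Cidec, Pparg and Pnpla2 were closer to 0 in C-IKKa against WT, at -0.045, -0.034 and -0.062.

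**Figure D4:**
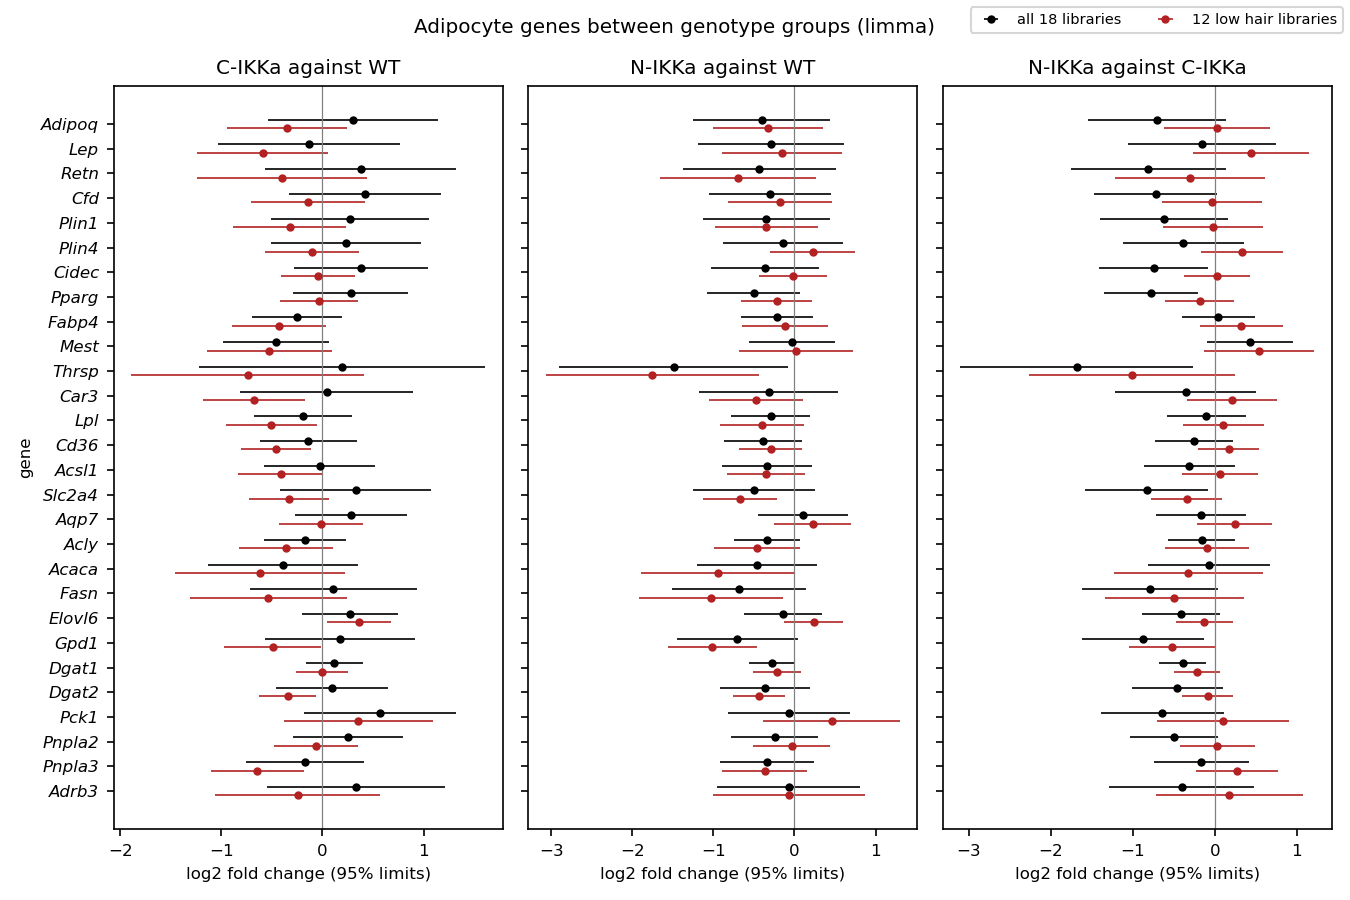
Log2 fold change with 95% limits for the 28 members in each genotype contrast, fitted with limma to all 18 libraries (black) or to the 12 low hair libraries (red). In C-IKKa against WT the median of the points is 0.18 in black and -0.36 in red, and 0 of 28 members are called in any panel.

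Of the wider adipocyte programme, 58 of 61 listed genes entered the tests, in 5 lists of transcription factors, other adipocyte markers, lipid synthesis, lipolysis and oxidation, and brown or beige fat. With all 18 libraries limma called 0 of 58 in each contrast, and so did edgeR. For limma this stands beside 0.345% (C-IKKa against WT), 0.00566% (N-IKKa against WT) and 0.43% (N-IKKa against C-IKKa) of all genes. The edgeR counts over all genes are given above with each contrast. At an unadjusted p below 0.05, limma gave 2 for C-IKKa against WT, 6 for N-IKKa against WT and 14 for N-IKKa against C-IKKa, beside 5.73%, 4.14% and 11.7% of all genes. In the 12 low hair libraries limma called 1 of 58, in C-IKKa against WT, beside 0.923% of all genes. This was Elovl5, an elongase of polyunsaturated fatty acids, higher in C-IKKa by a log2 fold change of 0.52 (SE 0.09, limma adjusted p = 0.02). With all 18 libraries Elovl5 gave 0.56 (limma adjusted p = 0.514). The desaturase gene Scd1 was also highest in WT 5, with 279730 normalized counts there and at most 119674 in the other 17.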

How the data were processed

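RNA of back skin from 18 mice was sequenced as paired-end reads from a stranded mRNA kit, per the labels' protocols. Reads were counted with featureCounts on GRCm39, per the submitters' processing notes; the aligner, annotation release, strand setting and scaling method are not given in the sources used here. Values as deposited are a signal, namely normalized counts for each gene and library. Every library's non-zero values were 100% whole multiples of a single step (tolerance 0.001 reads), so reads were recovered by division; depth was 11.1 to 15.7 M reads, and 3 reads were worth 2.45 to 3.61 normalized counts, for counting error only. Rows without a symbol (1347) stayed in the table.

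The main test was limma 3.58.1 (R 4.3.3) with a mean-variance trend on log2(normalized count + 1), 1 mean per group over 18 libraries, with Benjamini-Hochberg adjustment over the 17667 genes with at least 10 in at least 6 libraries. It was tested on simulated data. Fold changes are on that scale and understate low genes. Alternatives were edgeR 4.0.16 and DESeq2 1.42.0 on recovered reads, pseudocounts of 0.5 and 5, no filter or one of 50, TMM and quantile scaling, hair and sex covariates, the 12 low hair libraries and each library left out. Hair states were split at the widest gap of the hair list, and libraries with more than 500 normalized counts of Ddx3y were read as male. Exon lengths and overlaps came from GENCODE M21 on GRCm38, matched by gene identifier, and promoters from RefSeq GRCm38.p6. All members are named; of each other list, called genes or those a result turns on. The members and lists were chosen with earlier results of these data known.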

Additional observations from a re-analysis of the deposited data

Results flagged for a closer look

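In 84 checks of members within a genotype group of 6 libraries, the highest or lowest library stood far from the others 4 times, where chance marks about 5% of such checks. Acly held 6958 normalized counts in WT 5, with the next WT library at 3423, and 3527 in C-IKKa 14, with the next at 2907. Acaca held 1359 normalized counts in C-IKKa 14, with the next at 782, and Pnpla3 held 940 there, with the next at 619.

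In 4 members the high and low hair libraries stood in opposite order in different genotype groups. C-IKKa 14 lay above the 5 low hair C-IKKa libraries, while the high hair libraries of WT and of N-IKKa lay below the low hair libraries of their own group. C-IKKa 14 held 3555 normalized counts of Adipoq, 3478 of Cfd, 1733 of Slc2a4 and 940 of Pnpla3. The 5 low hair C-IKKa libraries held 1482 to 3075 for Cfd, 954 to 1650 for Slc2a4 and 503 to 619 for Pnpla3. These differences were not tested, and in C-IKKa they rest on 1 library. The share of all genes tested that met the same rule was not computed, so the 4 members are described only.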

How the results depend on the processing

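Each of the 3 genotype contrasts had 0 called members under every alternative run. The median fold change (log2) in C-IKKa against WT moved to -0.36 without the high hair libraries. Leaving out 1 library, it ran from -0.01 to 0.32 in C-IKKa against WT, from -0.49 to -0.14 in N-IKKa against WT and from -0.56 to -0.34 in N-IKKa against C-IKKa. Members not overlapping between hair states numbered 0 with all libraries, 19 within WT (all below, beside 21.5% of all genes), 17 within N-IKKa (16 below and 1 above, beside 26.9% each), 13 within C-IKKa (all above, the opposite direction, beside 25.7%) and 11 without C-IKKa 14 (all below, beside 9.16%); this last alternative and the fit with hair and sex together were chosen after seeing the data.

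For C-IKKa against WT and N-IKKa against WT, 392 single-gene results by contrast and setting were compared. Of these, 39 changed sign, none of them called. Only some alternatives entered this comparison, and DESeq2, quantile scaling and the fits with a library left out did not. Sign changes in those fits are not among the 39. In C-IKKa against WT, the main fit gave 19 positive and 9 negative members. Quantile scaling gave 20 and 8, and the fit without WT 4 gave 14 and 14. N-IKKa against C-IKKa was not compared gene by gene; its members went from 2 positive and 26 negative to 15 and 13 without the high hair libraries. In C-IKKa against WT without the high hair libraries the compared results that changed sign were Adipoq -0.35, Retn -0.40, Cfd -0.14, Plin1 -0.32, Plin4 -0.10, Cidec -0.045, Pparg -0.034, Thrsp -0.74, Car3 -0.68, Slc2a4 -0.33, Aqp7 -0.015, Fasn -0.53, Gpd1 -0.49, Dgat1 -0.0022, Dgat2 -0.34, Pnpla2 -0.062 and Adrb3 -0.24. With edgeR they were Retn -0.019, Thrsp -0.39, Car3 -0.21, Fasn -0.11 and Dgat2 -0.034. Car3 was -0.079 with the hair covariate, -0.13 with sex and -0.031 with both, Dgat2 -0.020 with sex and Acsl1 0.017 with both. In N-IKKa against WT without the high hair libraries they were Plin4 0.22, Mest 0.015, Elovl6 0.23 and Pck1 0.46; with the hair covariate Plin4 0.011, Mest 0.020, Pck1 0.021 and Adrb3 0.015; with hair and sex Plin4 0.0085, Pck1 0.015 and Adrb3 0.087; and with edgeR Pck1 0.082. The cause was not tested. No paired analysis was possible because the groups share no replicate numbers. Ucp1 lay near the limit of 3 reads, so a difference in it was not detectable at this depth.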
